A study of Homo sapiens with 12 samples.

Results

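The 10 genes described here encode plasma apolipoproteins and MTTP, the protein that loads lipid onto APOB. The apolipoprotein genes are APOA1, APOA2, APOA5, APOB, APOC2, APOC3, APOD, APOH and APOM. All 10 were taken by symbol from the 19677 genes listed in each count table, and all were found. The RNA came from cells labelled CAOV3, a human line of high-grade serous ovarian carcinoma with a wild-type genotype label. The 12 libraries fell into 4 groups of 3: a DMSO control, 10% ascites (abdominal fluid of ovarian cancer) together with DMSO, 200 uM bezafibrate, and the combination of ascites with the drug, the last 3 for 16 hours. DMSO is named only for the groups without the drug, so a comparison of the drug with its absence includes any difference in solvent. No time is given for the control libraries. The labels do not say whether replicates were separate cultures or whether the ascites came from more than 1 patient, so p-values measure the spread between these libraries, which may be technical. All groups are 1 cell line.

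Apolipoproteins are the protein coats of lipoproteins, the particles that carry triglyceride and cholesterol in blood, and they are made mostly by liver and small intestine. APOB is the scaffold of the large triglyceride-carrying particles and needs MTTP, the microsomal triglyceride transfer protein, to receive lipid in the endoplasmic reticulum. Fibrates such as bezafibrate activate PPAR receptors, which pair with RXR receptors and bind direct repeats of a nuclear receptor half-site separated by a single base, called DR1. In liver, fibrates are known to change the output of several apolipoprotein genes, APOA1, APOA2, APOA5 and APOC3 among them.

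Total counts per library ranged from 11831093 to 18762759. Levels are given as CPM (counts scaled to the TMM-adjusted library size), and members with few counts were limited by counting error. Combination replicate 3 stood apart from the other libraries, at -22.4 on the second principal component (9.88% of the variance) where the others lay between -4.37 and 9.84. Results of the tested members that use the combination group are given with and without it, and those of other genes where the library decided a call. The label was checked against marker genes. Of 11 markers of serous epithelium 6 were abundant enough to be tested. KRT7, KRT8, KRT18, EPCAM and CDH1 were expressed in control cells, from 18.6 CPM for CDH1 to 3005 CPM for KRT8. Markers that define serous ovarian carcinoma were close to 0: PAX8 was at 0.378 CPM in control cells, WT1 at 0.124 CPM and MUC16 at 0.0983 CPM, while WFDC2 had 2 counts over all 12 libraries. The same cells held HNF4A at 103.8 CPM, VIL1 at 191.2 CPM and CDX2 at 12.9 CPM. HNF4A is a transcription factor of liver and gut that drives apolipoprotein genes, and VIL1 and CDX2 are known from intestinal epithelium. The cells are therefore called the cells labelled CAOV3, and given no other name.

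The stretches upstream of the transcription start are shown for 3 genes. APOA2 and APOH are the 2 members called in a drug comparison. MTTP, which had no called change, is shown because a start of it carries a relaxed DR1 match. APOA5 carries such a match too, but had 0 counts and is not shown. Sequences are those of RefSeq on GRCh38.p14, which holds starts for 6 of the 10 members (APOA2, APOA5, APOC2, APOH, APOM and MTTP). Each covers the 250 bases before the start, written 5′ to 3′ on the strand of the gene. Capitals mark matches to a searched motif. For APOA2 the stretch is chr1:161223629-161223878 on the minus strand, for APOH chr17:66229416-66229665 on the minus strand, and for the downstream start of MTTP chr4:99574574-99574823 on the plus strand.
APOA2: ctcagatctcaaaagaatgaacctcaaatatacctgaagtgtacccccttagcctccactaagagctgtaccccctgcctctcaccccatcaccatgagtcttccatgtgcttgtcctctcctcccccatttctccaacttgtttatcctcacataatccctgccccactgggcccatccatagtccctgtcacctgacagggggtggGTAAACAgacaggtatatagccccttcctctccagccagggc
APOH: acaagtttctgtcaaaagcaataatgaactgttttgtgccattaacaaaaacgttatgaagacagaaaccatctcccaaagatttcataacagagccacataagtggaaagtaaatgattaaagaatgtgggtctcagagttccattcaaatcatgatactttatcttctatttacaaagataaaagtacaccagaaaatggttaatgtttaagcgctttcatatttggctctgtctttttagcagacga
MTTP: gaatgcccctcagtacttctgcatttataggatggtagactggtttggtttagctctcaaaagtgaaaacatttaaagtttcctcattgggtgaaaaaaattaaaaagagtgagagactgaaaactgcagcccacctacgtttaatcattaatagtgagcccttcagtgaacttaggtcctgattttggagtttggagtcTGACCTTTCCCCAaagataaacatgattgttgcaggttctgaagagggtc

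The motifs were searched on both strands. They were the half-site AGGTCA, the exact DR1 (AGGTCA, then N, then AGGTCA), the relaxed DR1 (NGGNNA, then N, then AGGTCA), the HNF4-type CAAAGTCCA and the FOXA core TGTTTAC. The DR1 forms contain the half-site, so a DR1 match is also a half-site match. Of 35116 promoter stretches of this length, 12.1% held the half-site, 0.0171% the exact DR1, 0.339% the relaxed DR1, 0.325% the HNF4-type motif and 2.98% the FOXA core. APOA2 held 1 match, the FOXA core on the reverse strand from base 42 to base 36 before the start. APOH had 0 matches, upstream of a RefSeq start that lies inside the GENCODE span of the gene. MTTP held the relaxed DR1 on the reverse strand from base 50 to base 38 before its downstream start, and APOA5 held AGGTTAAAGGTCA, a relaxed DR1, on the forward strand from base 242 to base 230. APOA5 also held a half-site from base 74 to base 69 of that stretch, and another from base 156 to base 151 before its other start. APOC2 held 1 half-site and APOM had 0 matches. The exact DR1 and the HNF4-type motif had 0 matches in the stretches of these 6 members. A match describes letters only.

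The cells labelled CAOV3 expressed 5 of the 10 members at a level that could be tested, and the other 5 gave between 0 and 20 counts over all 12 libraries. Genes were tested where filterByExpr in edgeR kept them (12470 of 19677 genes). APOA2, APOH, APOA1, MTTP and APOM passed this filter. Levels of different genes were set side by side only as CPM per kilobase of transcript (the median length of a gene's protein-coding transcripts in GENCODE 29), which assumes reads along the whole transcript. The library type is not stated. In control cells APOA2 was the highest of the 10 at 10.2 ± 2.35 CPM per kilobase (SD, n = 3), followed by APOH at 2.59 ± 0.533, APOA1 at 1.22 ± 0.181, APOM at 0.658 ± 0.246 and MTTP at 0.277 ± 0.125 CPM per kilobase. The control libraries of APOM, from 0.398 to 0.887 CPM per kilobase, overlapped those of MTTP, from 0.184 to 0.419. The other neighbours among these 5 did not overlap. Below MTTP came APOC2 at 0.135 and APOC3 at 0.127 CPM per kilobase, both under the filter. Their control libraries, from 0.0938 to 0.202 and from 0 to 0.248, overlapped those of MTTP. With ascites APOC2 stood at 0.231 and MTTP at 0.22 CPM per kilobase.

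**Figure D1:**
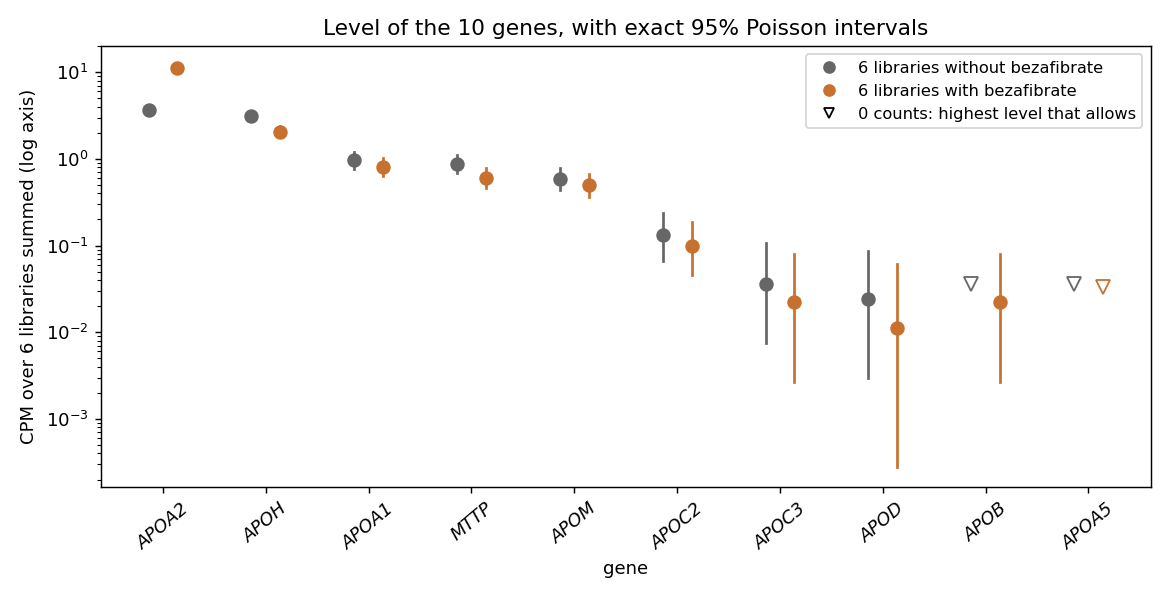
Level of the 10 genes as CPM over 6 libraries summed (log axis), for the libraries without bezafibrate (grey) and with it (orange). Lines are exact 95% Poisson intervals, which cover counting error only, and open triangles mark genes with 0 counts at the level that 3 counts would give. APOA2 went from 3.66 to 11.1 CPM, and APOC2, APOC3, APOD, APOB and APOA5 stayed under 0.2 CPM in both sets.

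APOA2 was the only tested member called higher with the drug, in each comparison with and without ascites. It encodes the second most abundant protein of high density lipoprotein. APOA2 (ENSG00000158874.11) lies on the minus strand of chromosome 1 from 161222292 to 161223631 (GRCh38, GENCODE 29). It stood at 5.18, 3.23 and 4.44 CPM in the control libraries and at 2.35, 3.44 and 3.30 CPM with ascites. With bezafibrate it stood at 12.7, 11.2 and 9.96 CPM, and with both at 10.2, 10.3 and 12.2 CPM. All 6 libraries with the drug were above all 6 without it. The share of all tested genes that separated in this way was not counted, so the separation is description only. APOA2 rose 2.63-fold with bezafibrate against control (95% interval 2.14 to 3.23), or 1.40 ± 0.147 on the log2 scale (± SE, edgeR adjusted p 1.24e-09). In the combination against ascites it rose 3.57-fold (2.84 to 4.48), or 1.84 ± 0.162 on the log2 scale (± SE, edgeR adjusted p 1.6e-11). Without combination replicate 3 the latter was 1.75 (edgeR adjusted p 9.67e-14).

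With bezafibrate against control, 1 of the 5 tested members was called higher and 1 lower, where 10.1% of all tested genes were called higher and 7.55% lower. In the combination against ascites 1 was called higher and 0 lower, against 10.5% and 7.29% of all tested genes. The median log2 fold change of the 5 was -0.63 and 0.02 in these comparisons, and that of all tested genes was 0.00 in both. Averaged over the presence and absence of ascites (6 libraries against 6), APOA2 rose by 1.62 ± 0.109 on the log2 scale (± SE, edgeR adjusted p 5.24e-15), or 1.57 without combination replicate 3. There 1 member was called higher and 1 lower, and 28.3% of all tested genes were called, 15% higher and 13.2% lower. Against control, the combination raised APOA2 by 1.33 ± 0.152 (± SE, edgeR adjusted p 8.24e-09), or 1.25 without combination replicate 3, with 1 member called higher and 0 lower where 10.3% of all tested genes were called higher and 7.96% lower.

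**Figure D2:**
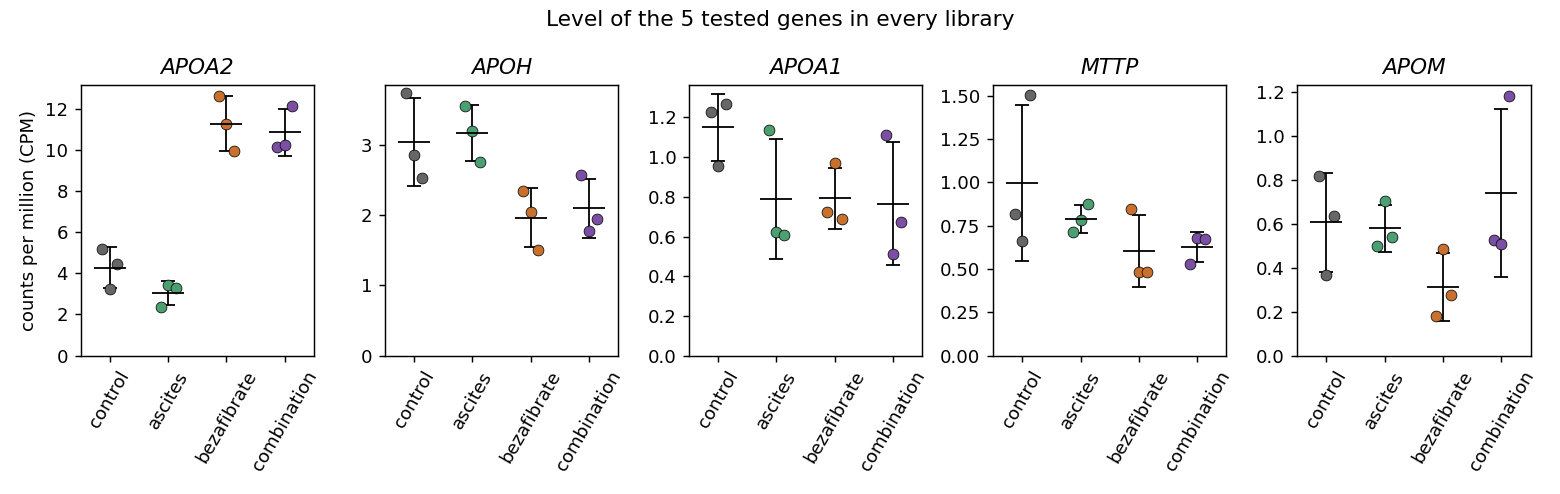
CPM of APOA2, APOH, APOA1, MTTP and APOM in each library (points, 3 per group), with the mean (bar) and SD (whiskers) of each group; each panel has its own axis from 0. The 6 APOA2 points with bezafibrate lie between 9.96 and 12.7 CPM and the 6 without it between 2.35 and 5.18 CPM.

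Ascites did not change APOA2 beyond the threshold. Its mean was 3.03 ± 0.591 CPM with ascites and 4.29 ± 0.984 CPM in control (SD, n = 3), and the groups overlapped. The log2 fold change was -0.51 with a 95% interval from -0.894 to -0.121 (unadjusted p 0.0115, edgeR adjusted p 0.692), so a fall of this size could not be told from the spread once all genes were considered. In drug-treated cells the change with ascites was -0.07 (interval -0.321 to 0.187, edgeR adjusted p 1), and -0.15 without combination replicate 3. The test of whether the drug response differed with ascites gave an interaction of 0.44 (interval -0.0219 to 0.904, edgeR adjusted p 0.999), and 0.36 without combination replicate 3.

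The genes on either side of APOA2 were read too. FCER1G, on the low-coordinate side at a distance of 1593 bases, was under the filter, with means of 0.0951 CPM without the drug and 0.34 CPM with it. TOMM40L, an outer mitochondrial membrane protein gene 2308 bases away on the other side, rose by 0.25 (edgeR adjusted p 0.00492) without ascites and 0.36 (edgeR adjusted p 9.34e-05) with it. The 3 genes whose log2 CPM followed APOA2 most closely over the 12 libraries were PCK1 (Pearson's r 0.979), GBP3 (0.978) and CDH1 (0.973). GBP3 is an interferon-inducible guanylate-binding protein and CDH1 the adhesion protein E-cadherin. PCK1, which encodes the cytosolic PEP carboxykinase of gluconeogenesis, averaged 3.87 CPM without the drug and 14.1 CPM with it. These correlations describe 12 libraries that share the same drug split, over 11925 genes compared, and carry no test.

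Markers of other cell types moved with the drug too. Of 10 hepatocyte markers 3 were abundant enough to be tested, AHSG and HP were at 0 in all libraries, and ALB was at 0.505 CPM in control cells. The summed level of this list was between 6.39 and 7.7 CPM in control libraries, 7.62 and 9.06 with ascites, 4.25 and 4.82 with bezafibrate, and 4.05 and 4.46 with both. The fibrinogen genes FGA and FGB fell with bezafibrate, by 1.20 and 0.83 on the log2 scale, and in the combination against ascites, by 1.25 and 1.40. Without combination replicate 3 the latter change of FGA was -1.08 and not called (edgeR adjusted p 0.0906). SERPINA1, the third tested gene of the list, had changes of -0.12 (edgeR adjusted p 0.893) and 0.03 (edgeR adjusted p 0.976). AMBP and TF were under the filter, with 23 and 27 counts in the libraries with the drug and 21 and 25 in those without it. Of 6 enterocyte markers 3 were tested: FABP1, a fatty acid binding protein of liver and gut, rose by 1.21, VIL1 fell by 0.45 and CDX2 had a change of -0.21 that was not called (edgeR adjusted p 0.179). FABP1 in the combination against ascites rose by 1.62, and VIL1 and CDX2 fell by 0.36 and 0.32; without combination replicate 3 the change of CDX2 was -0.28 and not called (edgeR adjusted p 0.0967). The summed level of the 6 was between 207 and 210 CPM in control libraries, 203 and 205 with ascites, 159 and 165 with bezafibrate, and 165 and 175 with both. In bulk RNA, more cells of a type and more RNA per cell cannot be told apart, and the part of such markers in the APOA2 result was not tested. PTPRC, CD3E, CD163 and TYROBP, 4 of 7 markers of blood cells and macrophages, were at 0 in every library, and the 7 summed to between 2.22 and 5.01 CPM over all libraries. Of 6 mesothelial and fibroblast markers 3 were tested, and the 6 summed to between 10.4 and 12.2 CPM without the drug and between 6.75 and 8.49 CPM with it. The collagen genes COL1A1 and COL3A1 fell, by 0.68 and 0.71 without ascites and by 0.69 and 0.97 with it. CALB2, a mesothelial marker, had changes of -0.16 (edgeR adjusted p 0.852) and 0.68 (edgeR adjusted p 0.293). UPK3B, another, was under the filter with 13 counts in the libraries without the drug and 49 in those with it. The 11 serous markers summed to between 5560 and 5870 CPM without the drug and between 5720 and 6240 CPM with it. Of the 6 tested serous genes CDH1 rose by 1.52 and 1.69 and KRT7 by 0.55 and 0.57. PAX8 rose by 1.48 with bezafibrate against control (edgeR adjusted p 0.0252). Its change in the combination against ascites was 0.66 (edgeR adjusted p 0.44). KRT8, KRT18 and EPCAM were not called, at -0.04, -0.05 and 0.19 without ascites and -0.02, 0.01 and 0.02 with it. The other serous markers were under the filter. Counts without and with the drug were 10 and 0 for MUC16, 11 and 4 for WT1, and 37 and 29 for MSLN. They were 15 and 16 for FOLR1, and 1 and 1 for WFDC2.

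APOA1 encodes the main structural protein of high density lipoprotein, and it showed no called change. APOA1 (ENSG00000118137.10) lies on chromosome 11 from 116835751 to 116837950 on the minus strand. Its libraries stood at 1.23, 0.955 and 1.27 CPM in control, 1.14, 0.624 and 0.606 CPM with ascites, 0.723, 0.968 and 0.687 CPM with bezafibrate, and 1.11, 0.51 and 0.675 CPM with both. The groups overlapped in each pairwise comparison. The drug gave a log2 fold change of -0.51 (interval -1.23 to 0.198, edgeR adjusted p 0.374) without ascites and 0.02 (interval -0.77 to 0.815, edgeR adjusted p 0.981) with it, or 0.12 without combination replicate 3. These intervals leave room for a fall or a rise of over 1.5-fold in the second case. APOA1-AS, an antisense gene not listed in the tables, overlaps APOA1 over 1834 bases. Whether the counting used strand is not stated, so APOA1 counts are uncertain.

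APOM is a lipocalin that rides on high density lipoprotein and carries sphingosine phosphate. APOM (ENSG00000204444.11, chromosome 6, 31652416 to 31658210, plus strand) had between 3 and 14 counts per library. It stood at 0.818, 0.367 and 0.635 CPM in control, 0.498, 0.703 and 0.539 CPM with ascites, 0.181, 0.484 and 0.275 CPM with bezafibrate, and 0.528, 0.51 and 1.18 CPM with both. Combination replicate 3, the library that stood apart, held the highest value. With bezafibrate against control the log2 fold change was -0.91 (interval -1.94 to 0.121, edgeR adjusted p 0.251). The combination against ascites gave 0.31 (edgeR adjusted p 0.72), and -0.14 without combination replicate 3. In the combination against bezafibrate the change was 1.14 (interval 0.14 to 2.14, unadjusted p 0.0266, edgeR adjusted p 0.935). Of all tested genes 0.128% were called in that comparison, 0.0401% higher. Without combination replicate 3 the change of APOM there was 0.68. BAG6, at 223 CPM without the drug, overlaps APOM by 290 bases on the opposite strand, so part of these few counts could belong to it.

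APOD, a lipocalin found on high density lipoprotein and in many tissues outside the liver, was nearly absent. APOD (ENSG00000189058.9, chromosome 3, 195568702 to 195584205, minus strand) had 2 counts in control replicate 1, 1 count in bezafibrate replicate 2 and 0 in the other 10 libraries. The pooled level was 0.0173 CPM.

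The 3 members that act on lipoprotein lipase were at or close to 0. APOC2, the activator of the enzyme, had 20 counts in 9 of 12 libraries, a pooled level of 0.133 CPM without the drug (exact Poisson 95% interval 0.0665 to 0.238) and 0.0996 CPM with it (0.0455 to 0.189). The intervals overlapped. These intervals cover counting error only. APOC2 (ENSG00000234906.11, chromosome 19, 44945982 to 44949565, plus strand) lies inside the read-through gene APOC4-APOC2, which had 0 counts in all libraries, so the division of reads between the pair is uncertain. APOC3, an inhibitor of triglyceride clearance (ENSG00000110245.12, chromosome 11, 116829706 to 116833072, plus strand), had 5 counts in 4 libraries, 3 without the drug and 2 with it. APOA5, which lowers plasma triglyceride (ENSG00000110243.12, chromosome 11, 116789367 to 116792420, minus strand), was at 0 in each of the 12 libraries, and 3 counts over the summed libraries set its upper limit at 0.0173 CPM. Changes of APOC2, APOC3 and APOD of any moderate size were not detectable at this depth. With no filter on low counts, the adjusted p of edgeR for the averaged drug effect was 0.834 for APOC2, 0.842 for APOC3 and 1 for APOD.

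APOA1, APOC3 and APOA5 are neighbours with APOA4 on chromosome 11. APOA4, another lipoprotein coat protein of the intestine, had 20 counts over the 12 libraries. Of these 4 genes only APOA1 passed the filter.

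The scaffold APOB had 1 count in bezafibrate replicate 3, 1 count in combination replicate 2 and 0 in the other 10 libraries. APOB (ENSG00000084674.15, chromosome 2, 21001429 to 21044073, minus strand) was at 0 in the 6 libraries without the drug, which allows up to 0.0363 CPM. Its partner MTTP (ENSG00000138823.14, chromosome 4, 99563761 to 99623999, plus strand) was expressed at a low level. MTTP stood at 0.818, 0.661 and 1.51 CPM in control, 0.712, 0.781 and 0.875 CPM with ascites, 0.844, 0.484 and 0.481 CPM with bezafibrate, and 0.528, 0.679 and 0.675 CPM with both. The highest value was that of control replicate 3, and the control and bezafibrate groups overlapped. The log2 fold change was -0.69 (interval -1.48 to 0.0893, edgeR adjusted p 0.248) for bezafibrate against control. In the combination against ascites the change was -0.36 (interval -1.2 to 0.494, edgeR adjusted p 0.645), and -0.41 without combination replicate 3. Of all tested genes 17.8% were called in that comparison. Without control replicate 3 the change with bezafibrate was -0.29. TRMT10A, at 5.83 CPM without the drug, overlaps MTTP by 272 bases on the opposite strand, and MTTP counts are uncertain to that extent.

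APOH encodes a plasma glycoprotein that binds anionic phospholipid, and it was the only tested member called lower with bezafibrate. APOH (ENSG00000091583.11) lies on chromosome 17 from 66212033 to 66256525 on the minus strand. It stood at 3.75, 2.87 and 2.54 CPM in control, 3.56, 3.20 and 2.76 CPM with ascites, 2.35, 2.04 and 1.51 CPM with bezafibrate, and 2.58, 1.78 and 1.94 CPM with both. The bezafibrate libraries were all below the control libraries, and the combination libraries all below the ascites libraries. How many of all tested genes separated in this way was not counted, so the separation is description only. The change was -0.63 ± 0.226 on the log2 scale (± SE, edgeR adjusted p 0.0489) for bezafibrate against control. In the combination against ascites it was -0.56 ± 0.229 (± SE, edgeR adjusted p 0.0911), which was not called, and -0.50 without combination replicate 3. The interaction was 0.07 (interval -0.585 to 0.722, edgeR adjusted p 0.999), and 0.13 without combination replicate 3. Averaged over ascites, APOH had a change of -0.59 ± 0.161 (± SE, edgeR adjusted p 0.00434), called lower, and -0.56 without combination replicate 3 (edgeR adjusted p 0.00697).

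The call of APOH in bezafibrate against control was close to the threshold. It was lost with DESeq2 (adjusted p 0.139) and without robust estimation (edgeR adjusted p 0.0575). It was also lost without control replicate 1 (-0.44, edgeR adjusted p 0.292), control replicate 2 (edgeR adjusted p 0.0723), bezafibrate replicate 2 (edgeR adjusted p 0.0985) or bezafibrate replicate 3 (edgeR adjusted p 0.199). A call was gained in the combination against ascites without combination replicate 1 (-0.76, edgeR adjusted p 0.0451). The averaged drug effect on APOH was called in all 20 alternatives run. The 3 genes whose log2 CPM correlated most highly with APOH over the 12 libraries were CASTOR2 (Pearson's r 0.941), SMOC1 (0.940) and NME1 (0.900). Their changes with bezafibrate against control were -0.37, -0.35 and -0.07, where that of APOH was -0.63. These correlations too describe 12 libraries that share the same drug split, and carry no test.

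**Figure D3:**
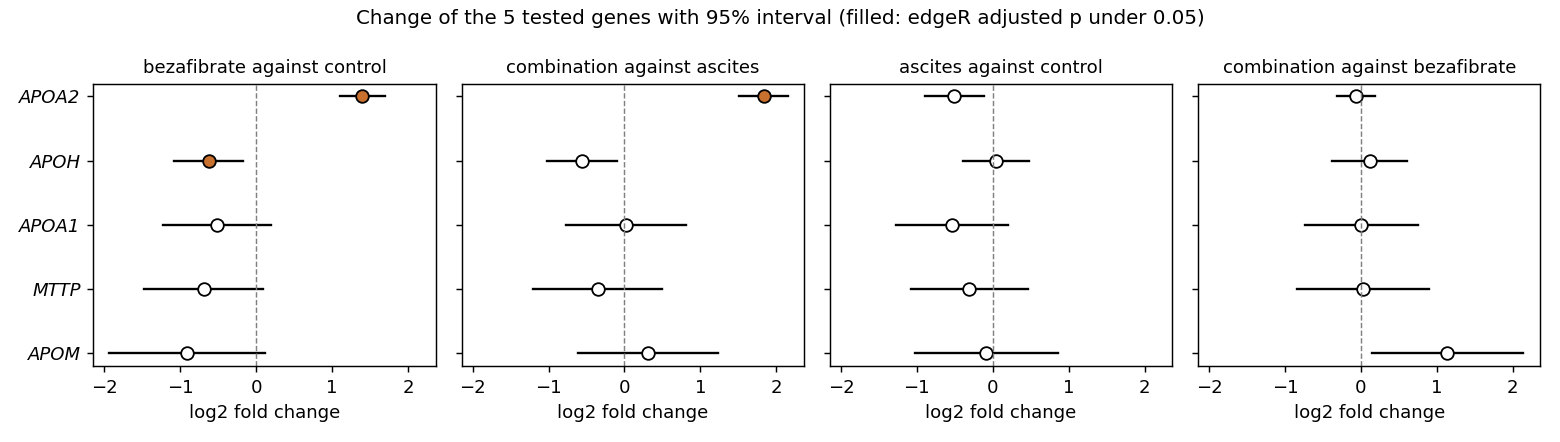
Log2 fold change (points) with its 95% interval (lines) of the 5 tested members in 4 comparisons; filled points passed an edgeR adjusted p of 0.05. APOA2 is filled in both drug comparisons (1.40 and 1.84) and APOH in bezafibrate against control (-0.63), while no point is filled in the ascites comparisons.

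No tested member was called with ascites. The count was 0 of 5 in ascites against control, in the combination against bezafibrate, in the averaged ascites effect and in the interaction, by edgeR and by DESeq2. At an unadjusted p under 0.05 the edgeR counts were 1 (APOA2), 1 (APOM), 1 (APOA2) and 0. At that same unadjusted threshold edgeR gave 749, 597, 869 and 445 of the 12470 tested genes in these 4 comparisons. Of all tested genes, 0.0882% were called with ascites against control, 0.128% in the combination against bezafibrate, 0.281% in the averaged ascites effect (0.0481% higher) and 0% in the interaction.

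Other apolipoproteins and genes with similar names were read from a list of 12 genes, of which 7 were tested. APOE and APOL1 were not on the list. With bezafibrate against control 3 rose, 1 fell and 3 were not called (APOLD1, APOO and APOOL). The same counts held in the combination against ascites. The median log2 fold change was 0.40 and 0.45, against 0.00 for all tested genes. The share of the list called was 42.9% higher and 14.3% lower in both comparisons, where 10.1% and 7.55% of all tested genes were called in the first and 10.5% and 7.29% in the second. This list was chosen with earlier results of these data known, so its share is description only and no measure of enrichment. APOL6, an interferon-inducible member of the intracellular APOL family, rose by 1.44 without ascites and 1.48 with it. APOC1, a small exchangeable apolipoprotein, rose by 0.80 and 0.82, from a mean of 20.9 CPM in control to 36.4 CPM with bezafibrate. APOL2 rose by 0.40 and 0.59. CLU, the secreted chaperone also called apolipoprotein J, fell by 0.37 and 0.33.

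The machinery that assembles and exports lipoproteins had called changes of at most 0.29 in size on the log2 scale. It was read from a list of 23 genes, of which 22 were tested. In both drug comparisons 4 rose, 2 fell and 16 were not called, with median log2 fold changes of 0.02 and 0.05 (0.00 for all tested genes). That was 27.3% of the list called, against 17.6% and 17.8% of all tested genes. This list too was chosen with earlier results known, so its share is description only. Without combination replicate 3, 3 rose and 2 fell in the combination against ascites. MIA2, named after its values were seen, rose by 0.13 and 0.16. The latter was not called without combination replicate 3 (0.10, edgeR adjusted p 0.0803). PRAP1, a lipid-binding protein of the gut named after its values were seen, had changes of 0.76 (edgeR adjusted p 0.107) and 0.51 (edgeR adjusted p 0.313). P4HB, the subunit that pairs with MTTP, was at 484.1 CPM in control cells and had changes of 0.05 (edgeR adjusted p 0.298) and 0.01 (edgeR adjusted p 0.872). SEC23A and SEC24D, coat proteins of the vesicles that leave the endoplasmic reticulum, rose by 0.29 and 0.23 with bezafibrate against control and by 0.26 and 0.24 in the combination against ascites. VMP1, a membrane protein needed for lipoprotein release, rose by 0.17 in both. SORT1, a sorting receptor that binds APOB, fell by 0.20 and 0.15, the latter not called without combination replicate 3 (-0.12, edgeR adjusted p 0.0832). MIA3, which helps load large cargo, fell by 0.19 with bezafibrate against control and had a change of -0.15 in the combination against ascites (edgeR adjusted p 0.0524), which was called without combination replicate 3 (-0.21, edgeR adjusted p 0.00329). SAR1A, named after its values were seen, fell by 0.11 in the latter; it encodes a GTPase of the same vesicles.

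Lipases, remodelling proteins and receptors were read from a list of their own. Of 18 genes 13 were tested. With bezafibrate against control 8 rose, 0 fell and 5 were not called (median 0.21), and in the combination against ascites 7 rose, 1 fell and 5 were not called (median 0.30), where the median of all tested genes was 0.00 in both. The share of the list called was 61.5% in each, against 17.6% and 17.8% of all tested genes. Because the list was chosen with earlier results of these data known, this share is description only and no measure of enrichment. Without combination replicate 3 the latter counts were 6 and 0. ANGPTL4, an inhibitor of lipoprotein lipase, rose by 3.60 and 3.65, and VLDLR, a receptor for triglyceride-rich particles, by 2.46 and 2.51. The cholesterol exporters ABCG1 and ABCA1, which pass lipid to high density lipoprotein, rose by 0.95 and 0.80 without ascites and by 0.97 and 0.85 with it. LRP1, a clearance receptor, rose by 0.29 and 0.35. LSR, a receptor for triglyceride-rich particles in liver, was the gene that fell in the combination against ascites, by 0.14, and was not called without combination replicate 3 (-0.10, edgeR adjusted p 0.121). LIPC, the hepatic lipase, had changes of -0.11 (edgeR adjusted p 0.92) and 1.20 (edgeR adjusted p 0.0683); both were named after their values were seen. CETP had 0 counts and LPL had 1 count over the 12 libraries.

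Transcription factors known for apolipoprotein genes changed in both directions. Of 24 genes 21 were tested, and in each drug comparison 7 rose, 5 fell and 9 were not called, with medians of 0.02 and 0.00. That was 57.1% of the list called, against 17.6% and 17.8% of all tested genes. Here too the list was chosen with earlier results known, so the share is description only. CREB3L3, a membrane-bound factor of liver and gut known to activate APOC2, APOA4 and APOA5, rose by 1.93 and 1.94. Its mean went from 40.8 ± 1.81 CPM in control to 155.4 ± 5.14 CPM with bezafibrate (SD, n = 3), while APOC2 and APOA4 stayed under the filter and APOA5 at 0. CEBPA rose by 1.19 and 1.10, and NR1H3, the oxysterol receptor LXR alpha, by 1.10 in both. PPARD rose by 0.62 and 0.47, and CEBPB by 0.60 and 0.47. The genes that fell were named after their values were seen. NR0B2, NR5A2, FOXA1 and PPARG fell in both comparisons, by 0.50, 0.33, 0.31 and 0.39 without ascites and by 0.58, 0.52, 0.42 and 0.37 with it. FOXA2 fell by 0.30 in the combination against ascites. HNF4A fell by 0.19 with bezafibrate against control (edgeR adjusted p 0.000837) and had a change of -0.11 in the combination against ascites (edgeR adjusted p 0.0745), or -0.13 and called without combination replicate 3 (edgeR adjusted p 0.0343).

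**Figure D4:**
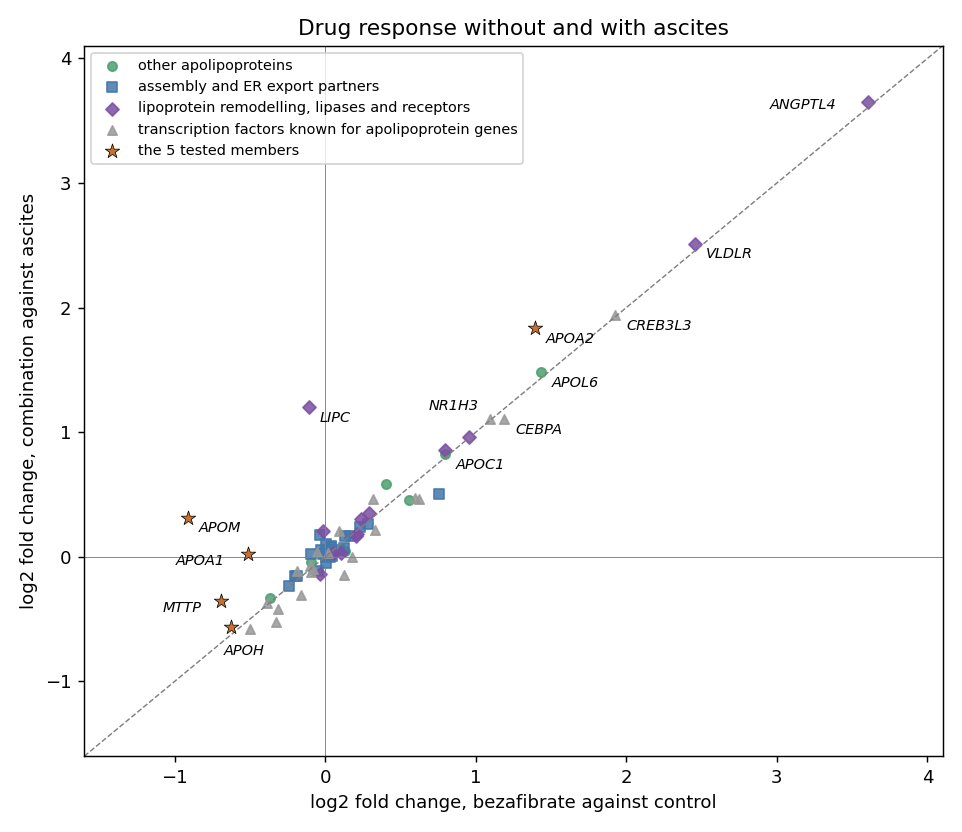
Log2 fold change with bezafibrate against control (horizontal) and in the combination against ascites (vertical) for tested genes of the 4 lists and the 5 tested members (stars); the dashed line marks equal change. APOA2 lies at 1.40 and 1.84 near CREB3L3 and APOL6, while APOH, MTTP, APOA1 and APOM lie at or below -0.51 on the horizontal axis.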

How the data were processed

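For each library the authors deposited unscaled counts per gene, all whole numbers, in a file with no header. Per the submitters' processing notes the tools were Trimmomatic 0.39, STAR 2.7.9a, RSEM 1.3.3 and DESeq2 1.28.1, with build GRCh38; their roles, the annotation, the strand setting and the library type are not given in the sources used here. If RSEM made the counts, they are rounded estimates.

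Groups and replicate numbers came from the titles. Counts were tested in edgeR 4.0.16 (R 4.3.3) over all 12 libraries with 1 mean per group: filterByExpr (minimum count 10, minimum total 15), TMM scaling, and robust quasi-likelihood F tests with Benjamini-Hochberg adjustment over 12470 genes. A gene was called at an adjusted p under 0.05. Each SE came from the F statistic and the change. DESeq2 1.42.0, other scalings and filters, leaving out each library and a replicate block were alternatives.

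The members and lists were chosen with earlier results of these data known. All members are named. Of each list, up to 5 called genes with the largest change in the drug comparisons are named, and for called members the 3 genes with the highest Pearson's r among those with a mean of at least 1 CPM. Replicate pairs differed by a chi-square of 1.44 to 4.45 per degree of freedom over genes with at least 20 counts, so no library was counted as a duplicate.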

Additional observations from a re-analysis of the deposited data

How the results depend on the processing

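APOA2 kept its call and direction in all 15 alternatives of bezafibrate against control (1.23 to 1.57), all 15 of the combination against ascites (1.68 to 1.93) and all 20 of the averaged drug effect (1.53 to 1.70). Under the replicate block these values were 1.40, 1.83 and 1.62. Same-numbered libraries correlated between -0.135 and 0.0613 in their deviations, and 1 of 12 libraries correlated best with its own number. No pairing by number was seen. Counting error alone can keep such correlations low, so this check could not exclude pairing. The block gave 2145 genes for bezafibrate against control (2199 without it) and 1 for the interaction, where DESeq2 and the fit without robust estimation also gave 1, against 0 in the design as written; it changed no call of a member. Fits without a filter called 59 genes in ascites against control, 52 in the combination against bezafibrate, 113 for the averaged ascites effect and 36 for the interaction. Fits of only the groups compared called 33 and 7 in the first and second of these. The causes were not tested.

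When 1 library was left out, ascites against control called 3 to 5 genes, the combination against bezafibrate 9 to 28, the averaged ascites effect 21 to 118 (the highest without combination replicate 3) and the interaction 0 to 3, against 11, 16, 35 and 0 with all libraries. The share of the averaged ascites calls that were higher went from 17.1% to 27.8% with no scaling beyond total counts. Upper-quartile scaling moved that share from 53.2% to 43.3% for the averaged drug effect and from 57.2% to 49% for bezafibrate against control. No called list gene changed sign in the drug comparisons under 3 other scalings or without combination replicate 3, alternatives chosen after seeing the data. MIA3 and HNF4A gained their call in the combination against ascites under upper-quartile scaling (-0.17 and -0.13) and with total counts. MIA3 also gained it under RLE, the third scaling (edgeR adjusted p 0.0484). In bezafibrate against control, upper-quartile scaling and total counts each gained NR2F2 and KRT18 and lost MIA2 and PLTP. In the combination against ascites both lost NR2F6, and upper-quartile scaling lost LRP8 (edgeR adjusted p 0.0502). Of 645 alternative values of single members, 638 had the same call, 6 lost it and 1 gained it, the last 7 all for APOH. APOM and MTTP gave no value under the stricter filter of at least 1 CPM in 3 libraries. Low-count members also lacked values elsewhere. Where APOA2 had 15 values, APOM had 12 in bezafibrate against control, and MTTP had 13 and APOA1 14 in the combination against ascites. The 645 values leave such settings out. APOC2, APOC3, APOD, APOB and APOA5 were under the filter at this depth.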
